A study of Homo sapiens with 4 samples.

Results

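The HSP70 family in these data is a set of 10 genes, HSPA1A, HSPA1B, HSPA2, HSPA4, HSPA4L, HSPA6, HSPA8, HSPA9, HSPA13 and HSPA14, found by symbol among the 62700 genes of the count tables. The libraries are of poly(A) RNA and come from HEK293T, an embryonic kidney cell line of human origin, after transient transfection with α-amanitin-resistant, EYFP-tagged RPB1, the catalytic subunit that carries the tail of RNA polymerase II. In the T4A group, threonine 4 was replaced by alanine in every repeat of the C-terminal domain (CTD), the heptad tail of RPB1. Cells of the WT group received the same protein with a wild-type tail. Both groups received α-amanitin, a toxin that removes endogenous RPB1, from 1 day after transfection for 48 h at 2.5 µg/ml. There were 2 libraries per group, which the labels do not tie to separate cultures. The family was chosen partly on this comparison, because HSPA6 rose most of its members. The values of the members below are therefore a description, and no p-value is printed for them. Members were called by the adjusted p of the fit over all genes, and these calls are description too.

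HSP70 proteins are ATP-driven chaperones that bind stretches of unfolded protein and release them with the help of J-domain proteins and nucleotide exchange factors. HSPA1A, HSPA1B and HSPA6 are inducible members, switched on by heat shock factor 1 (HSF1) when unfolded protein accumulates, and HSPA6 is kept almost silent in unstressed cells. HSPA8 is the constitutive cytosolic member (HSC70), HSPA9 works in mitochondria, HSPA13 in microsomes and HSPA14 at the ribosome, while HSPA4 and HSPA4L are larger HSP110-type relatives that act as exchange factors.

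Heat shock factors bind runs of GAA and TTC units in alternating orientation with 2 bases between them, the heat shock element. RefSeq promoters (GRCh38.p14, 250 bases before to 50 after a transcription start) were matched for 9 of the 10 members, which gave 11 promoters because HSPA4L had 3 starts. HSPA14 was not among them. The letters searched were GAANNTTCNNGAA and TTCNNGAANNTTC, which are 3 units with 9 fixed bases, and each is the reverse complement of the other, so that both strands were covered. Overlapping matches were counted apart. Of the members matched, HSPA6 and HSPA8 alone had an exact match, which 172 of all 35116 promoters had (0.49%). Their promoters are shown whole, with matches of up to 1 mismatch in capitals. Both members were also called higher in T4A cells. HSPA1A and HSPA1B had too few counts to be tested, and whether an exact element goes with a rise was not tested in the family. Genes outside the family with an exact element are counted further below. The promoter of HSPA6 lies at chr1:161524290-161524589 on the plus strand, and that of HSPA8 at chr11:123062087-123062386 on the minus strand.
HSPA6: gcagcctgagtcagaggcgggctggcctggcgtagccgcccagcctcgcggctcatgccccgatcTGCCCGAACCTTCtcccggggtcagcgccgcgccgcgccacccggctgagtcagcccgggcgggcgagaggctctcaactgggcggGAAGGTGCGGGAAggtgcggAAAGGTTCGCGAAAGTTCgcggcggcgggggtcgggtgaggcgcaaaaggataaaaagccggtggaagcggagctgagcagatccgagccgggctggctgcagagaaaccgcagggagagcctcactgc
HSPA8: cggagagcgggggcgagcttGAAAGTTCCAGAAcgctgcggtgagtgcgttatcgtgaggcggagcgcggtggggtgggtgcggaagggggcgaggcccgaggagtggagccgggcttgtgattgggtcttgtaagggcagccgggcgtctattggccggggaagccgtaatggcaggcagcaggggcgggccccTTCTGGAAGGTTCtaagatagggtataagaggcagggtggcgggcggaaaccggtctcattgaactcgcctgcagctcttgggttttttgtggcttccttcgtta
In HSPA6 the exact element lay at −74 to −62 from the start (position 0), and 1 mismatch allowed gave 4 matches in all, of which the one at −79 to −67 overlaps the exact element. In HSPA8 the exact elements lay at −230 to −218 and at −55 to −43. A match describes the letters and shows no binding.

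Of the other members, HSPA1A, HSPA1B, HSPA9 and the second HSPA4L start had matches with 1 mismatch, which 6.24% of all promoters had at that allowance or better. Windows of 30 bases are shown to set them beside the exact elements, capitals again marking the matches.
HSPA1A: aaaccctgGAATATTCCCGACctggcagcc
HSPA1B: aacccctgGAATATTCCCGACctggcagcc
HSPA9: cgtggttgGAGGTTTCCAGAAgcgctgccg
HSPA4L: attTTCCAGATCTTTCTCGAAcccgcagct
The first 2 windows share all of their capitals, and they lie at −106 to −94 in HSPA1A and at −105 to −93 in HSPA1B. The match of HSPA9 spans the start itself, from −9 to 3. HSPA2, HSPA13, HSPA4 and the other HSPA4L starts had none. The box TATAAA was found in HSPA1A, HSPA1B and the third HSPA4L start, against 7.33% of all promoters.

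**Figure D1:**
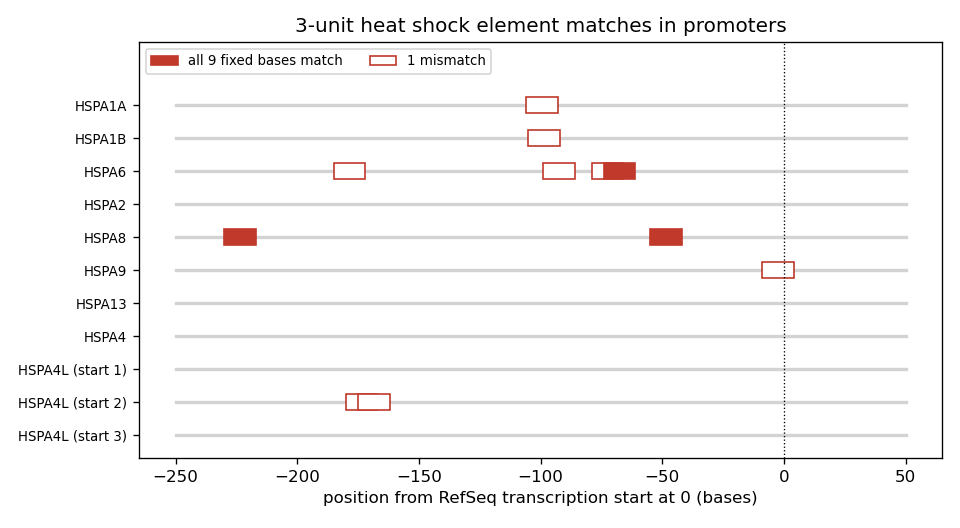
Positions of 3-unit heat shock element matches in the 11 RefSeq promoters of 9 HSP70 members, in bases from the transcription start. Filled boxes match all 9 fixed bases and open boxes have 1 mismatch. Filled boxes appear in HSPA6 (1) and HSPA8 (2) only, and HSPA6 has the most matches (4).

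Library totals were 23465029 and 19257217 counts for T4A, against 33063535 and 24695291 for WT. Levels are counts per 1000000 (CPM) with library sizes scaled by trimmed mean of M values (TMM), so they are shares of a library, and a smaller share of cells and less RNA per cell cannot be told apart. POLR2A, which codes for RPB1 and takes up reads of the construct as well as of the endogenous gene, was at 5378 and 5477 CPM in T4A libraries and 3772 and 2764 CPM in WT libraries. Its log2 fold change, T4A over WT, was 0.73 ± 0.08 (SE, n = 2 per group, adjusted p = 7.23e-07, edgeR quasi-likelihood test), so the level of the construct and the mutation cannot be told apart in any comparison that follows.

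Among the inducible members, HSPA6 was detected in all 4 libraries. HSPA6 (ENSG00000173110.8) is a single-exon gene at chr1:161524540-161526894. It had 644 and 437 counts in T4A libraries, against 22 and 24 counts in WT libraries. These were 28.4 and 23.2 CPM in T4A and 0.656 and 0.937 CPM in WT. Both T4A libraries lay far above both WT libraries, and the lower T4A library was 24.8-fold above the higher WT library. The means were 25.8 ± 3.64 CPM in T4A and 0.796 ± 0.199 CPM in WT (SD, n = 2 each), a 32.4-fold ratio. The fitted log2 fold change was 5.04 ± 0.21 (SE), which ranked 4 among all 18139 genes tested, and it lay between 4.78 and 5.28 when any 1 library was left out.

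HSPA1A and HSPA1B, the principal heat-inducible HSP70 genes, had almost no counts. HSPA1A had 0 counts in each library, where 3 counts, the limit that 0 allows for counting error only, correspond to 0.0894 to 0.159 CPM. HSPA1B had 1 and 0 counts in T4A libraries and 0 and 9 counts in WT libraries. Both were too low to be tested. These genes code for proteins that were 100% identical over 641 residues, and 70.7% of the 128-base windows of HSPA1A and 67.4% of those of HSPA1B were found elsewhere in the GRCh37 genome sequence. The sources used here do not say how fragments with several matching places were counted.

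The low counts also extended beyond this pair. HSPA1A and HSPA1B lie on chromosome 6 at chr6:31815543-31817942 and chr6:31827738-31830254, and the genes around them were looked up after their counts had been seen. Of 84 protein-coding genes within 1 Mb of HSPA1A, 44 had 0 counts in all 4 libraries and 16 (19%) reached a mean of 1 CPM, against 63.4% of all 19058 protein-coding genes compared. The 4 nearest were HSPA1L, a testis-enriched family relative, and LSM2, VARS1 and VWA7. HSPA1L and LSM2, a subunit of the U6 small nuclear RNA complex, had 0 counts in each library. VARS1, the cytosolic valyl-tRNA synthetase that every cell uses, had 4 and 4 counts in T4A libraries and 9 and 8 in WT libraries. No level of HSPA1A or HSPA1B, and no difference between T4A and WT in either gene, can therefore be read from these tables. Around HSPA6, 26 of 45 genes (57.8%) reached 1 CPM, and around the members on other chromosomes the share ran between 28.6% (HSPA8, 21 genes) and 87.5% (HSPA4L, 8 genes). The cause was not tested.

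**Figure D2:**
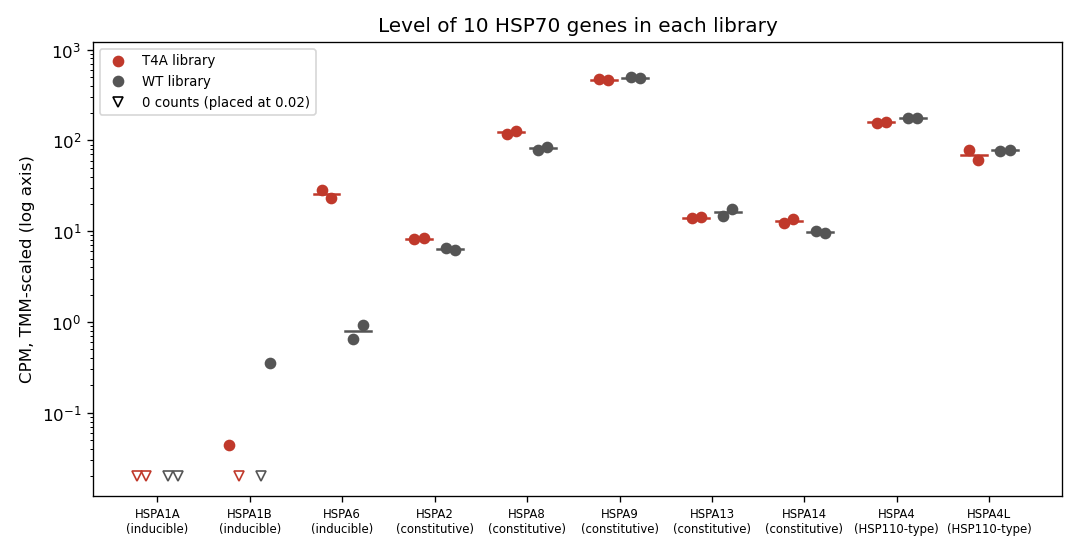
Level of the 10 HSP70 genes in each library, in CPM with TMM-scaled library sizes on a log axis. Points are libraries, T4A in red on the left and WT in grey on the right of each gene, lines are means of 2 libraries, and open triangles at 0.02 mark libraries with 0 counts. The T4A points of HSPA6 lie at 28.4 and 23.2 CPM and its WT points at 0.656 and 0.937 CPM, while the groups of the other detected members lie close together.

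Because HSPA6 shares sequence with relatives, its pseudogene HSPA7 was examined. HSPA7 had 6 and 12 counts in T4A libraries and 0 counts in both WT libraries. With 3 counts over the WT group as the limit, the ratio of T4A to WT was 8.55. That ratio takes the T4A counts as exact and covers counting error in WT only, not the spread between libraries. The T4A counts were 0.932% and 2.75% of the HSPA6 counts of the same libraries. Of 128-base windows, 24.8% in HSPA6 and 24.7% in HSPA7 were found elsewhere in the genome, so counts may be split between such relatives. Of the annotated genes within 50 kb of HSPA6, FCGR2A, an Fc receptor of myeloid cells, lies 527 bases away. FCGR2A had 5 and 6 counts in T4A libraries and 29 and 13 in WT libraries, and it was not called. FCGR3A had 3 and 2 counts in T4A and 0 in both WT libraries, and the other annotated genes there had at most 1 count in any library.

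The constitutive cytosolic member HSPA8 was called higher as well, by much less. HSPA8 (ENSG00000109971.14, chr11:123057489-123062462, 9 exons) was at 117 and 128 CPM in T4A libraries and 78.6 and 85.3 CPM in WT libraries. Its groups did not overlap, and the ratio of means was 1.49. The log2 fold change was 0.58 ± 0.06 (SE), between 0.51 and 0.64 with any 1 library left out. Of 128-base windows of HSPA8, 1.39% were found elsewhere, and its 17 annotated pseudogenes together had 7 and 4 counts in T4A libraries and 17 and 19 in WT libraries. Other annotated genes, among them SNORD14C and SNORD14D, share 15.1% of the exon bases of HSPA8. HSPA2 (chr14:64535905-64543237), a single-exon member best known from the male germ line, was at 8.2 and 8.4 CPM in T4A and 6.5 and 6.17 CPM in WT. Its groups did not overlap, but its log2 fold change of 0.39 ± 0.19 was not called. HSPA14 (chr10:14838306-14871741), which takes part in the ribosome-associated complex, was at 12.3 and 13.5 CPM in T4A and 9.96 and 9.64 CPM in WT. Its log2 fold change of 0.39 ± 0.15 was not called with 4 libraries and was called without T4A replicate 1 (0.46). Of its exon bases, 12.7% are shared with CDNF or MSANTD7, and the reads were aligned without strand.

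The organelle members differed little between the groups. HSPA9 (chr5:138553756-138575401), the mitochondrial HSP70 also called mortalin, had the most counts of the family. It was at 469 and 457 CPM in T4A libraries and 493 and 488 CPM in WT libraries, and its log2 fold change of −0.08 ± 0.04 was not called. The groups of HSPA9 did not overlap, although the means differed by a ratio of 0.944. Its pseudogene HSPA9P1 had 4 and 1 counts in T4A libraries and 11 and 9 in WT libraries. HSPA13 (chr21:14371115-14383146) was at 13.9 and 14.2 CPM in T4A and 14.6 and 17.7 CPM in WT. Its log2 fold change of −0.20 ± 0.13 was not called. Dropping WT replicate 1 gave −0.33 and dropping WT replicate 2 gave −0.06, and the WT libraries differed more from each other than the T4A libraries did.

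Of the HSP110-type members, HSPA4 was called lower in T4A and HSPA4L was not called. HSPA4 (chr5:133052013-133106449) was at 157 and 160 CPM in T4A libraries and 178 and 177 CPM in WT libraries. Its groups did not overlap, and the log2 fold change of −0.16 ± 0.05 was called lower. That call was lost without T4A replicate 1 (−0.15), WT replicate 1 (−0.15) or WT replicate 2 (−0.17). HSPA4L (chr4:127781796-127840733), whose protein is 63.4% identical to that of HSPA4, was at 78.8 and 61.0 CPM in T4A and 77.2 and 77.9 CPM in WT. Here the groups overlapped, and T4A replicate 2 alone lay below both WT libraries. The log2 fold change of HSPA4L was −0.15 ± 0.09 and not called, and it was 0.021 without T4A replicate 2 and −0.35, called, without T4A replicate 1.

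Of the 10 members, 8 passed the filter on low counts. Of these 8, 2 were called higher in T4A, HSPA6 and HSPA8, beside 10.7% of all 18139 genes tested, and 1 was called lower, HSPA4, beside 13.0% of all genes. The groups did not overlap in 7 of the 8, beside 59.0% of all genes. The median log2 fold change of the 8 was 0.15 and that of all genes tested was −0.01. Because the comparison helped to choose the family, nothing is read from these counts.

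**Figure D3:**
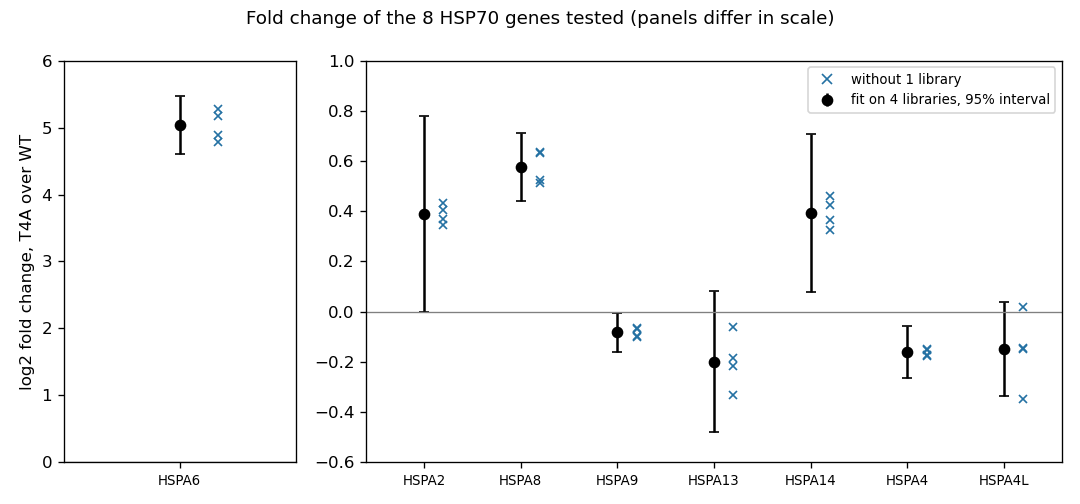
Fitted log2 fold changes (T4A over WT) for the 8 HSP70 genes tested. Black points are the edgeR fit on 4 libraries with its 95% interval, blue crosses are fits without 1 library, and the panels differ in scale. HSPA6 lies at 5.04 and HSPA8 at 0.58 with all crosses above 0, while the crosses of HSPA4L lie on both sides of 0.

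To compare levels between genes, CPM were divided by the length of the annotated exons in kb. HSPA9, HSPA4 and HSPA8 led in this order in both groups, an order that depends on the length taken. HSPA9 stood at 47.3 ± 0.837 CPM per kb in T4A and 50.1 ± 0.379 in WT, and HSPA4 at 31.3 ± 0.336 in T4A and 35 ± 0.202 in WT. HSPA8 stood at 25.2 ± 1.53 CPM per kb in T4A and 16.9 ± 0.98 in WT. Among the 8 members tested, which leaves out HSPA1A and HSPA1B, HSPA6 took rank 4 in T4A, at 11 ± 1.54 CPM per kb, and rank 8 in WT, at 0.338 ± 0.0844. Below these, the libraries of HSPA4L and HSPA14 overlapped in T4A, and those of HSPA14 and HSPA13 overlapped in WT, so the order of these neighbours is within their spread.

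In the summed level per kb of the family, HSPA6 made up 9.14% and 7.58% in T4A libraries, against 0.237% and 0.335% in WT libraries. HSPA8 made up 18.3% and 20.2% in T4A libraries and 13.8% and 14.8% in WT libraries. The share of HSPA9 was 36.4% and 35.9% in T4A and 42.9% and 41.9% in WT, and that of HSPA4 was 23.5% and 24.2% in T4A and 29.9% and 29.3% in WT. These shares sum to 100% in each library, so a larger share of HSPA6 and HSPA8 lowers the others, and the smaller shares of HSPA9 and HSPA4 are no measure of their own levels. The summed level was 132 and 130 CPM per kb in T4A libraries and 117 and 119 CPM per kb in WT libraries, with no overlap. Not divided by length, the summed CPM of the family was 885 and 865 in T4A libraries and 859 and 862 in WT libraries. Without HSPA6 the sums were 857 and 842 CPM in T4A and 858 and 862 CPM in WT, a ratio of 0.988. With the longest transcript as length, HSPA6 made up 6.15% on average in T4A and 0.215% in WT, and HSPA8 29.7% in T4A and 22.6% in WT. HSPA4 then made up 18.6% in T4A and 23.7% in WT, so that HSPA8 stood above HSPA4 in T4A and below it in WT. These shares hold HSPA1A and HSPA1B at or near 0, as counted.

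**Figure D4:**
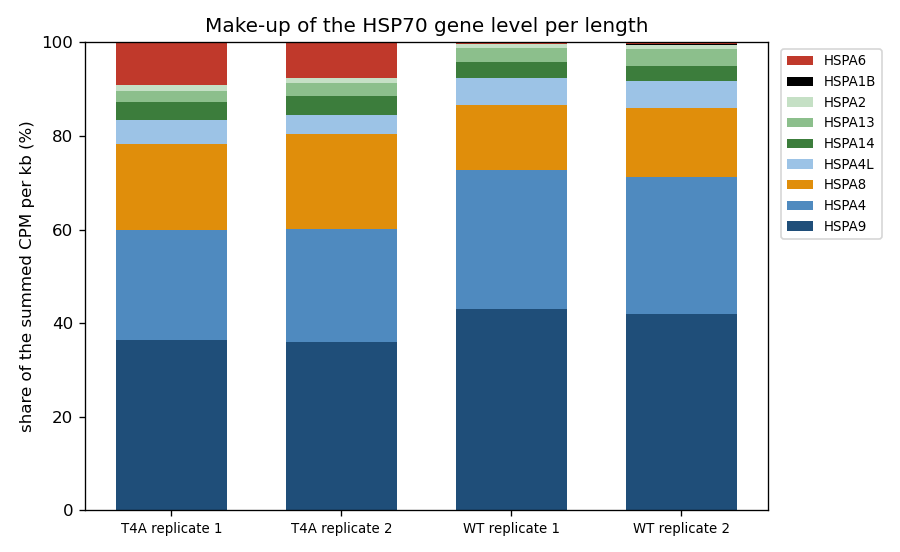
Share of each gene in the summed HSP70 level (CPM per kb of exon) of each library, in percent, with T4A libraries on the left and WT libraries on the right. Bars stack to 100%, and HSPA1A has 0 counts and no segment. The red segment of HSPA6 takes 9.14% and 7.58% in T4A and 0.237% and 0.335% in WT.

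Exon length moved with the fold changes. Of 5 equal bins of protein-coding genes tested by exon length, the shortest, up to 2990 bases, had a median log2 fold change of 0.26 with 27.5% called higher, and the longest had −0.30 with 36.3% called lower. HSPA6 and HSPA14 fell in the shortest bin, HSPA13 in the next, HSPA2, HSPA8 and HSPA4 in the middle bin (median −0.04, 10.2% called higher), and HSPA9 and HSPA4L in the longest. The part of length in the members' differences, and in the calls of the gene lists below, was not tested.

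The genes whose profile over the 4 libraries was nearest to that of HSPA6 were taken by Euclidean distance between log2 CPM values. Values were centred on each gene's mean, and 12226 protein-coding genes that averaged 1 CPM or more were compared. That average runs over all 4 libraries, so a gene near 0 in WT can pass through T4A alone, as STX11, DECR2, PCGF2 and CFD did. STX11, which codes for a syntaxin of secretory granules, was nearest, at a distance of 0.454. It was at 3.7 and 4.36 CPM in T4A libraries and 0.0596 and 0.117 CPM in WT libraries. DECR2, a peroxisomal dienoyl-CoA reductase (distance 1.45), was at 4.14 and 8.82 CPM in T4A and at 0 and 0.039 CPM in WT, where it had 1 count in all. PCGF2, a Polycomb subunit (1.68), CFD, which is complement factor D (2.96), and CHST8, a sulfotransferase (3.30), came next. With 2 libraries per group, this likeness is mainly the difference between groups, and CFD was at 4.63 and 0.851 CPM in T4A, against 0.179 and 0.547 CPM in WT.

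HSP70 works with a set of partners, and lists of these, of other heat-responsive genes and of other stress genes were counted in the same fit. The lists were chosen with earlier results of these data known, so their counts are a description. Of 20 cytosolic co-chaperones tested, 4 were called higher, beside 10.7% of all genes tested, and 1 lower, beside 13.0%, and the list's median log2 fold change was 0.02. With library totals as the scaling, 3 were called lower. DNAJB1, the J-domain protein that stimulates HSP70 after heat shock, was at 24.4 and 24.8 CPM in T4A libraries and 10.9 and 13.9 CPM in WT libraries. Its log2 fold change of 0.99 ± 0.13 (SE, adjusted p = 7.74e-06, edgeR) was the highest of the 4. BAG3, a stress-induced exchange factor, followed at 0.56 ± 0.10, HSPBP1, another exchange factor, at 0.43 ± 0.09, and STUB1, the ubiquitin ligase CHIP, at 0.35 ± 0.07. BAG5, also an exchange factor of the BAG family, fell by 0.46 on the log2 scale. Most J-domain proteins of the list, such as DNAJA1 (0.10 ± 0.06) and DNAJC7 (0.01 ± 0.08), were not called.

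Of 8 partners of mitochondrial HSPA9 tested, 3 were called higher and 1 lower, again beside 10.7% and 13.0% of all genes. HSCB, the J-domain protein of iron-sulfur cluster assembly, had a log2 fold change of 0.36 ± 0.11 and TIMM44, which tethers HSPA9 to the import channel, 0.26 ± 0.08. GRPEL2, a nucleotide exchange factor, fell by 0.30 on the log2 scale. DNAJA3 was also called higher (3.06 ± 0.72), but its T4A libraries were at 10.5 and 0.585 CPM, against 0.537 and 0.82 CPM in WT libraries, so 1 library carries the call. The partners called higher numbered 1 without T4A replicate 1 or WT replicate 2, 1 with library totals, 0 with DESeq2 and 2 with limma-voom. The call of GRPEL2 was lost with DESeq2, with other scalings by size factors or upper quartile, and without T4A replicate 1 or either WT library. Of 9 genes of the HSP70 system of the endoplasmic reticulum (ER), 0 were called higher and 3 lower by edgeR (10.7% and 13.0% of all genes), as by DESeq2 and limma-voom, and 1 was higher and 3 lower at an unadjusted p under 0.05. With upper-quartile scaling, 2 were called higher and 1 lower. The 3 were DNAJC10, an ER reductase (−0.53 ± 0.06), SEC63 of the translocon (−0.20 ± 0.05) and HYOU1, the ER exchange factor (−0.18 ± 0.04). HSPA5, the ER HSP70 called BiP, was at 115 and 117 CPM in T4A and 111 and 102 CPM in WT and was not called. Of 5 other family relatives tested, HYOU1 was called lower, beside 13.0% of all genes, and the others were not called.

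Among 18 heat-inducible genes outside the family, 10 were called higher and 0 lower by edgeR, beside the 10.7% and 13.0% of all genes. At an unadjusted p under 0.05, 10 were higher and 1 lower, DESeq2 gave 10 and 0, and limma-voom gave 10 and 1. Across the 12 alternatives between 8 and 11 were called higher and between 0 and 3 lower, the 3 with library totals as the scaling, and 1 was called lower without T4A replicate 1 or WT replicate 2. The median log2 fold change was 0.20. HSPB1, the small heat shock protein HSP27, was at 315 and 313 CPM in T4A libraries and 215 and 207 CPM in WT libraries, and its log2 fold change was 0.57 ± 0.04 (SE), with an adjusted p of 1.15e-08 in edgeR. UBB, which codes for ubiquitin, and HSPE1, the mitochondrial co-chaperonin, were called higher, as were DNAJB1 and BAG3 of the first list. The abundant chaperones HSP90AA1 (−0.05 ± 0.03), HSP90AB1 (−0.03 ± 0.03), HSPD1 (0.01 ± 0.03) and HSPH1 (−0.03 ± 0.05) were not called. HSPH1, the heat-inducible HSP110, was at 186 and 180 CPM in T4A and 191 and 181 CPM in WT. The list thus held genes that were called higher, as HSPA6 was, and abundant chaperones that were not called. Like the other lists it was chosen with earlier results known, so its share of calls is no independent test.

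The transcription factor HSF1 itself was at 140 and 147 CPM in T4A libraries and 122 and 124 CPM in WT libraries (log2 fold change 0.22 ± 0.05). Of 4 heat shock factors and their regulators tested, HSF1, HSF4 (0.68 ± 0.23) and HSBP1 (0.17 ± 0.04), a negative regulator of HSF1, were called higher by edgeR, beside 10.7% of all genes, and 0 of the 4 were with library totals as the scaling, 2 with DESeq2 and 3 with limma-voom. Of 11 genes of other proteotoxic or stress responses, 5 were called higher and 0 lower by edgeR (10.7% and 13.0% of all genes), 4 and 0 by DESeq2, 5 and 0 by limma-voom, and 5 and 1 at an unadjusted p under 0.05. Without WT replicate 2, 2 were called higher, and without T4A replicate 1, 1 was called lower. The 5 were ATF3, a stress-induced transcription factor, at 28.6 and 32.4 CPM in T4A and 15.7 and 15 CPM in WT, and PPP1R15A, MT2A, GADD45B and DDIT3.

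Outside the family, 53 tested genes had an exact 3-unit heat shock element in a RefSeq promoter, as HSPA6 and HSPA8 do. Of these, 8 (15.1%) were called higher, beside 10.7% of all genes, and 5 (9.43%) were called lower, beside 13.0%. Their median log2 fold change was −0.04, and that of all genes was −0.01. Among 680 genes with up to 1 mismatch, 12.1% were called higher and 14% lower.

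**Figure D5:**
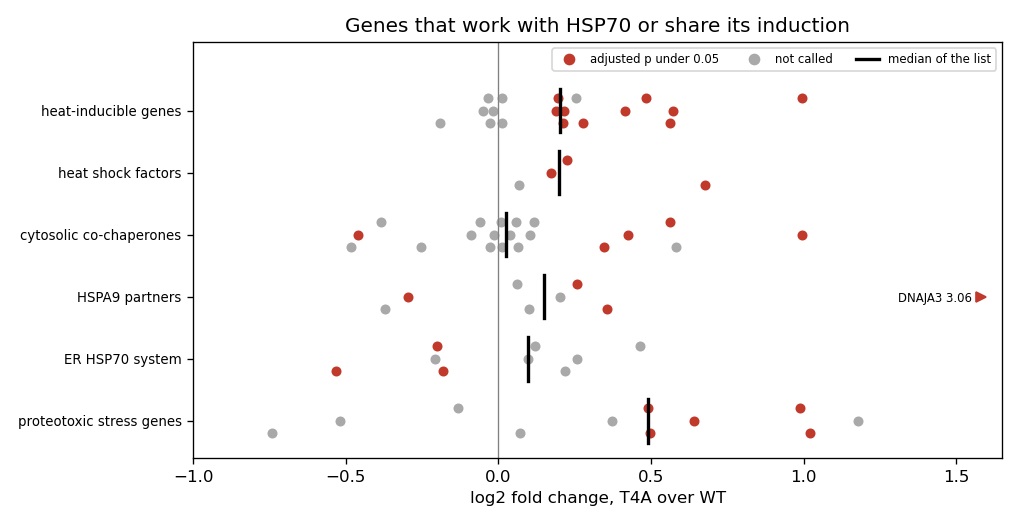
Fitted log2 fold changes (T4A over WT) for the genes tested in 6 lists, members of the family apart. The lists hold genes that work with HSP70, share its heat response or belong to other proteotoxic or stress responses. Red points were called at an adjusted p under 0.05, grey points were not, black bars are list medians, and DNAJA3 (3.06) lies off the axis. The medians run between 0.02 for the cytosolic co-chaperones and 0.49 for the proteotoxic stress genes.

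Markers of the cell line and of myeloid cells, in which HSPA6 can be expressed, were set beside these results. Of 6 markers of HEK293T cells, all were detected, and VIM and KRT8 were called higher, beside 10.7% of all genes. With library totals as the scaling, 1 marker was called higher. Of 10 myeloid markers, 5 were tested, and 1 of these (CD14) was called higher with 4 libraries, beside 10.7% of all genes. The number called higher was 0 without T4A replicate 2, without WT replicate 1, with library totals, with no filter or with DESeq2. TYROBP had 0 counts in every library, and PTPRC, which codes for CD45, had 2 and 0 counts in T4A and 0 in both WT libraries. The summed level of the 10 was 16.7 and 18.3 CPM in T4A libraries and 12.9 and 15.4 CPM in WT libraries. Most of it was CD14, at 13.6 and 15.2 CPM in T4A and 9.69 and 11.8 CPM in WT, whereas CSF1R was at 0.749 and 0.266 CPM in T4A and 0.745 and 0.82 CPM in WT. The part of such cells in the difference of HSPA6 was not tested.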

How the data were processed

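The authors deposited 1 table of gene counts per library, as whole fragments and without normalization. Per the submitters' processing notes and the study's methods, adapters were trimmed (Trimmomatic 0.38), reads were aligned to GRCh38 without strand (HISAT2 2.2.1), and fragments were assigned to genes (featureCounts 2.0.1). Identifiers were named from GENCODE 44 (60877 found), also used for exon lengths. Coordinates and promoters are RefSeq, GRCh38.p14, and repeated windows were sought in the GRCh37 genome.

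The counts of T4A and WT were fitted with edgeR 4.0.16 in R 4.3.3, using filterByExpr, TMM, glmQLFit and glmQLFTest, and Benjamini-Hochberg adjustment over 18139 genes. Genes with an adjusted p under 0.05 count as called. The fit was tested on simulated data. With 2 libraries per group an exact permutation test cannot go below 0.333, so tests borrow spread from other genes (common coefficient of variation 0.114), and p-values cover only how these libraries vary. The study describes the duplicates as biological replicates, while the labels name no separate cultures. Replicates differed by more than sampling noise (chi-square per degree of freedom 4.56 in T4A and 5.66 in WT). Intervals of the fit take in its estimate of the spread between libraries, while limits at 0 cover counting error only. The members and lists were chosen with earlier results of these data known. The text names the 10 members, POLR2A, up to 4 genes per list with the smallest p plus HSF1, annotated genes within 50 kb of HSPA6, pseudogenes of the members, and the 5 nearest profiles. A gene that this rule takes is not reported here. Other genes, such as those around HSPA1A, co-chaperones and chaperones that were not called, HSPA5 and TYROBP, were added after their values were seen. Alternatives were other scalings (DESeq2 size factors, upper quartile, library totals), filters of 1 CPM on the mean or none, DESeq2 1.42.0, voom in limma 3.58.1, a replicate block, and each library left out.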

Additional observations from a re-analysis of the deposited data

How the results depend on the processing

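The calls of HSPA6 and HSPA8 kept their direction and their side of the threshold under all 12 alternatives. These alternatives use the same 4 libraries that helped to choose the family. They show how the values depend on processing and give no independent test of the members. Of 96 fits of the 8 members tested, 86 kept both. With upper-quartile scaling, members called lower numbered 0, HSPA9 reversed to 0.0013, HSPA4 was at −0.08 and not called, and HSPA14 was called at 0.48. With library totals, members called lower numbered 2, with HSPA9 at −0.16. With a library left out, members called lower ranged between 0 and 1, and the log2 fold change of HSPA4L was −0.35 without T4A replicate 1, whereas dropping T4A replicate 2 in its place gave 0.021. The causes were not tested. Over all genes, 1935 were called higher and 2351 lower, against 2690 and 1718 with upper-quartile scaling and 1352 and 2987 with library totals, whose median log2 fold changes were 0.08 and −0.08. Without WT replicate 2, 1377 genes were called higher, and without WT replicate 1, 1583 were called lower. Counts with DESeq2 were 1421 higher and 1577 lower.

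Replicate numbers were shared between groups, and the deviations of same-numbered libraries correlated at −0.0038 across genes. Whether same-numbered libraries were handled together was not tested. With the replicate number as a block, 2012 genes were called higher and 2432 lower, members called higher numbered 2 and members called lower numbered 1. Depth limits HSPA7, for which 3 counts correspond to between 0.0894 and 0.159 CPM in a library, while for HSPA1A and HSPA1B these tables give no level at any depth.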
